A study of Mus musculus with 9 samples.

Results

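The average response to both knockdowns was the mean of the siMyT1 and siLSD1 groups set against the siControl group, over all 9 arrays of the series. The cells were Neuro2a, a mouse neuroblastoma line. The groups were named for their siRNA: siControl, siMyT1 (against Myt1) or siLSD1 (against Kdm1a, the gene of LSD1). Whether 1 or several siRNA sequences were used per target is not stated. Each group had 3 arrays of total RNA taken after 48 h, so 6 knockdown arrays stood against 3 control arrays. No untreated cells and no other control siRNA enter the comparison. Separate cultures are not stated for the 3 samples of a group, and the p-values therefore cover the spread among these samples, which could be technical. All 18193 genes with a named probe set were tested, each by whichever of its probe sets was brightest on average. As the RNA is bulk, fewer cells with a transcript and less of it per cell cannot be told apart.

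LSD1 is a histone demethylase that takes methyl groups off histone H3 and works in repressor complexes with CoREST proteins and histone deacetylases. Myt1 is a transcription factor of neural progenitors and neurons whose zinc fingers bind DNA with an AAGTT core. The series title places Myt1 in a neural LSD1 complex. The average asks which transcripts stood above or below control when either gene was targeted by siRNA, and no protein level enters it. A gene can be called in this average in 3 ways: both knockdowns moved it alike, 1 knockdown moved it alone, or 1 moved it far enough to outweigh the other. The direct comparison of siMyT1 with siLSD1, which uses no control array, was therefore fitted beside the average, and genes are described as even or uneven from it.

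The promoters of 4 genes are printed here because these genes were evenly changed, a class defined below that allows some difference between the knockdowns: Ptgr1 and Nek3 rose, and Hand2 and E2f8 fell. They were chosen among such genes because each holds the AAGTT core. Each is the stretch of 250 bases before the transcription start in RefSeq (GRCm38.p6), written 5′ to 3′ on the gene's own strand. Capitals mark AAGTT or its reverse complement AACTT. The stretches are chr4:58987079-58987328 on the minus strand for Ptgr1, chr8:22162495-22162744 on the minus strand for Nek3, chr8:57320733-57320982 on the plus strand for Hand2 and chr7:48881597-48881846 on the minus strand for E2f8.
Ptgr1 promoter: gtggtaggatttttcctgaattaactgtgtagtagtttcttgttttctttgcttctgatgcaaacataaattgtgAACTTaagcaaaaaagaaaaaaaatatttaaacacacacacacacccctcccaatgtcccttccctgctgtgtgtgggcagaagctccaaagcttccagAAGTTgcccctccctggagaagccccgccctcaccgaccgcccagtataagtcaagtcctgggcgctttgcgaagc
Nek3 promoter: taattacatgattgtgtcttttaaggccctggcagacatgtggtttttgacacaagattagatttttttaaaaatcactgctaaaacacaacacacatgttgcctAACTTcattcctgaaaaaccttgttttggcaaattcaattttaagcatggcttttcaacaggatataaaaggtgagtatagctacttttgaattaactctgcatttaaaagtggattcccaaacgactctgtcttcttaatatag
Hand2 promoter: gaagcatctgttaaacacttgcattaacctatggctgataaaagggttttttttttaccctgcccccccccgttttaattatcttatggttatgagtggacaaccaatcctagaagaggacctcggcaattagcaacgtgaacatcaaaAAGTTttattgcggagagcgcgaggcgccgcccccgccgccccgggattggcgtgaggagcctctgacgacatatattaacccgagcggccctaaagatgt
E2f8 promoter: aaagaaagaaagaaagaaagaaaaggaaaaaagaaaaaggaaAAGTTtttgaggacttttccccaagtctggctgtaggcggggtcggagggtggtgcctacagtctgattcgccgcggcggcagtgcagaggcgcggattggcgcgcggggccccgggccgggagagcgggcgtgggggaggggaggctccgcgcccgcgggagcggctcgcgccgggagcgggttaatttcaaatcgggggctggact
The Ptgr1 stretch held 2 matches, at -175 and -76 from the start, and the others held 1 match each, at -145 in Nek3, -101 in Hand2 and -208 in E2f8. Those in Hand2 and E2f8 lay within the longer motif AAAGTTT, which always contains an AAGTT. Of 18109 such stretches, for 14452 of the measured genes, 30.9% held AAGTT on either strand and 3.5% held AAAGTTT. Among evenly changed genes, defined below, AAGTT was in 36.8% of 242 stretches of genes that rose and 23.6% of 106 stretches of genes that fell. AAAGTTT was in 4.13% and 4.72% of them. Among all called genes AAGTT was in 30.7% of stretches of genes that rose and 23.1% of those that fell, and AAAGTTT in 4.05% and 3.1%. A match is a run of letters and not a binding site, and no binding was measured.

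Arrays of 1 group correlated at 0.992 to 0.994 in their log2 values. The range was 0.989 to 0.992 between control and knockdown arrays and 0.986 to 0.989 between siMyT1 and siLSD1 arrays. Levels are in the deposited intensity units, whose meaning is unknown, with means ± SD over 3 arrays. Differences are on a log2 scale after a constant of 0.196 units was added, which understates the change of dim genes. The line's own markers were bright: those of sympathetic neuroblasts summed to 323 to 352 units in siControl, 296 to 331 in siMyT1 and 337 to 368 in siLSD1, led by Prph, Stmn2 and Hand2, although Nefl and Nefm stayed below 0.196 units. Markers of fibroblasts and smooth muscle summed to 11.4 to 13.7, 17.4 to 20.3 and 10.5 to 11.2 units, with 6 of 12 below 0.196 units, among them Col1a1, Lum and Tagln. Marker sums of glia (4.25 to 5.44 units), blood and endothelium (2.28 to 4.27) and epithelium (2.16 to 3.55) were low in all 3 groups.

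A gene was called when its p-value, adjusted over all genes, was under 0.05. In the average, 969 of 18193 genes were called (5.33%), 578 of them higher (3.18%) and 391 lower (2.15%) in the knockdowns. Most differences were small: 109 called genes were at least 1.5-fold higher and 64 at least 1.5-fold lower, and 14 and 5 passed 2-fold. Between the knockdowns themselves, 3423 genes were called (18.8%). The median size of the difference was 0.107 for the average and 0.175 for siMyT1 against siLSD1, with median standard errors of 0.117 and 0.135. Calls lay mostly in bright genes, with 10.8% of the brightest quartile called and 0.396% of the dimmest.

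Of the 969 called genes, 324 were evenly changed (1.78% of all genes), 219 of them higher and 105 lower. Evenly changed means that the 95% interval of siMyT1 minus siLSD1 lay within plus or minus the size of the average, so that each knockdown fell between 0.5 and 1.5 times the average; it is a description without a test of its own. In 560 genes (3.08%) the direct comparison was called as well, and these are termed unevenly changed, 314 higher and 246 lower. The classes overlapped in 38 genes, and 123 called genes were in neither. Uneven genes made up 57.8% of the average's calls, more than the even ones at 33.4%. Values were not normalized between arrays. The median log2 deviation of genes from their mean over 9 arrays was -0.041, 0.113 and 0.067 on the siMyT1 arrays. On the siLSD1 arrays it was -0.007, -0.076 and -0.047. The part of this offset in the classes was not tested. Under median centring 334 called genes were even, and the direct comparison called 2943. All 6 knockdown arrays lay above all 3 control arrays in 723 genes (3.97%) and below them in 434 (2.39%), and 383 and 195 of these were also called.

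**Figure D1:**
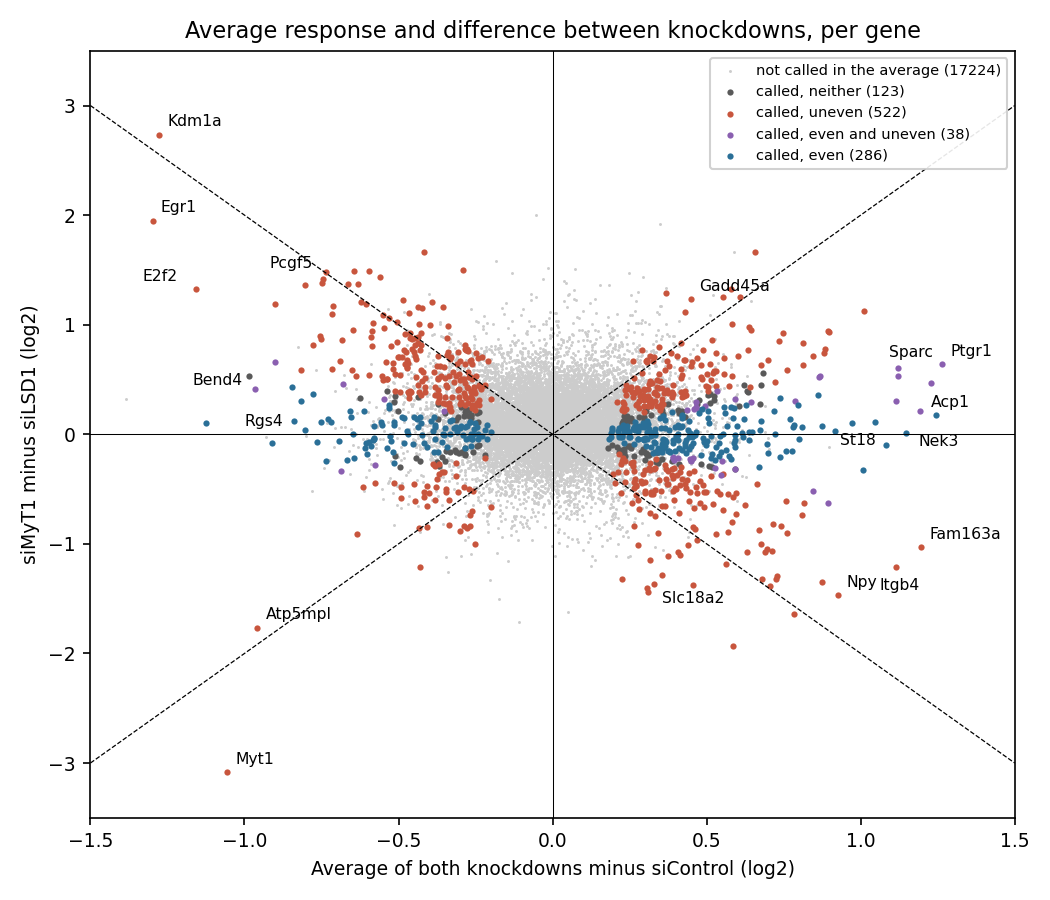
Each point is a gene, with the average of both knockdowns minus siControl on the x axis and siMyT1 minus siLSD1 on the y axis, both in log2. On the dashed lines 1 knockdown equals siControl; between them, to the left and right, both knockdowns moved the same way. The 324 even genes lie near the x axis, and Myt1 and Kdm1a lie beyond the dashed lines.

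Acp1, a small protein tyrosine phosphatase, rose more than 2-fold in the average. Its intensity was 18.2, 18.5 and 18.5 units on the siControl arrays, 42.9, 46.8 and 47.4 on the siMyT1 arrays, and 42.7, 36.1 and 39.4 on the siLSD1 arrays. Every knockdown array lay far above every control array, and the groups did not overlap. The average was 1.19 above control (SE 0.06, adjusted p = 3.71e-07), made of 1.30 in siMyT1 and 1.09 in siLSD1. The difference between the knockdowns, 0.21, was small and just passed the test (adjusted p = 0.0432). Of 5 further Acp1 probe sets, the brighter ones gave averages of 1.01 and 1.05. The others, at 0.612, 0.234 and 0.150 units in siControl, gave 0.65 (adjusted p = 0.0187), 0.24 (0.755) and -0.22 (0.821).

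Nek3, a kinase of the NIMA family, rose by similar amounts in both knockdowns. It measured 1.69, 1.78 and 1.62 units in siControl, 3.4, 4.49 and 4.20 in siMyT1, and 4.20, 4.10 and 3.64 in siLSD1. The lowest knockdown array was thus well above the highest control array. The average was 1.15 (SE 0.10, adjusted p = 4.37e-05), and the difference between the knockdowns was 0.01, with an interval of -0.23 to 0.25.

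Ptgr1, a reductase that clears reactive lipid aldehydes, had the largest average rise among named genes whose arrays stood apart. Its arrays read 1.58, 1.64 and 1.15 in siControl, 4.28, 5.40 and 4.52 in siMyT1, and 3.07, 2.94 and 2.84 in siLSD1. Both knockdowns were above control, and siMyT1 was above siLSD1 on every array. The average was 1.26 (SE 0.11, adjusted p = 5.71e-05), from 1.58 in siMyT1 and 0.94 in siLSD1. Sparc, a collagen-binding glycoprotein of the matrix, had the same order. It measured 12.6, 11.8 and 12.9 units in siControl, 31.6, 32.3 and 34.6 in siMyT1, and 25.0, 20.5 and 22.5 in siLSD1. The average was 1.12 (SE 0.06, adjusted p = 1.51e-06), and of 2 other probe sets 1 gave 0.95 and 1, at 0.420 units in siControl, gave 0.05.

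Bst2, the membrane protein tetherin, which holds back budding virus particles, rose evenly. It read 2.22, 2.6 and 2.51 units in siControl, 5.03, 5.78 and 5.58 in siMyT1, and 5.43, 4.39 and 5.38 in siLSD1. The knockdown groups overlapped with each other and not with control, and the average was 1.05 (SE 0.09, adjusted p = 4.37e-05). St18, a zinc finger factor of the same family as Myt1, measured 0.975, 0.976 and 1.01 units in siControl, 1.89, 2.15 and 2.66 in siMyT1, and 2.33, 2.0 and 1.82 in siLSD1. All 6 knockdown arrays were above control, by 1.03 in siMyT1 and 0.92 in siLSD1 (average 0.97, SE 0.12, adjusted p = 0.000601). A further St18 probe set gave 0.60 (adjusted p = 0.0473).

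Further genes had large even rises. Prkg2, the type II cGMP-dependent kinase, went from 0.787 ± 0.12 units to 2.51 ± 0.26 in siMyT1 and 1.76 ± 0.24 in siLSD1 (average 1.23). Dock10 gave an average of 1.12, and Arhgdib gave the same value. Milr1, an immunoglobulin-like receptor known from mast cells, averaged 1.25 but rested on 0.303 ± 0.11 units in siControl. Tm4sf1, a tetraspan-like surface protein, averaged 1.08 from 0.245 ± 0.15 units, and its call was lost without siControl replicate 1. Prkg2, Dock10 and Arhgdib were also uneven in the direct comparison (adjusted p = 0.0413, 0.00587 and 0.0499), with siMyT1 above siLSD1. Fam163a (average 1.19) and Itgb4 (1.12) had rises as large that were uneven and not even. Both were dim in siControl, at 0.42 ± 0.15 units for Fam163a and 0.286 ± 0.038 for Itgb4. Itgb4, an integrin subunit of hemidesmosomes, stood 0.51 above control in siMyT1 and 1.72 in siLSD1.

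**Figure D2:**
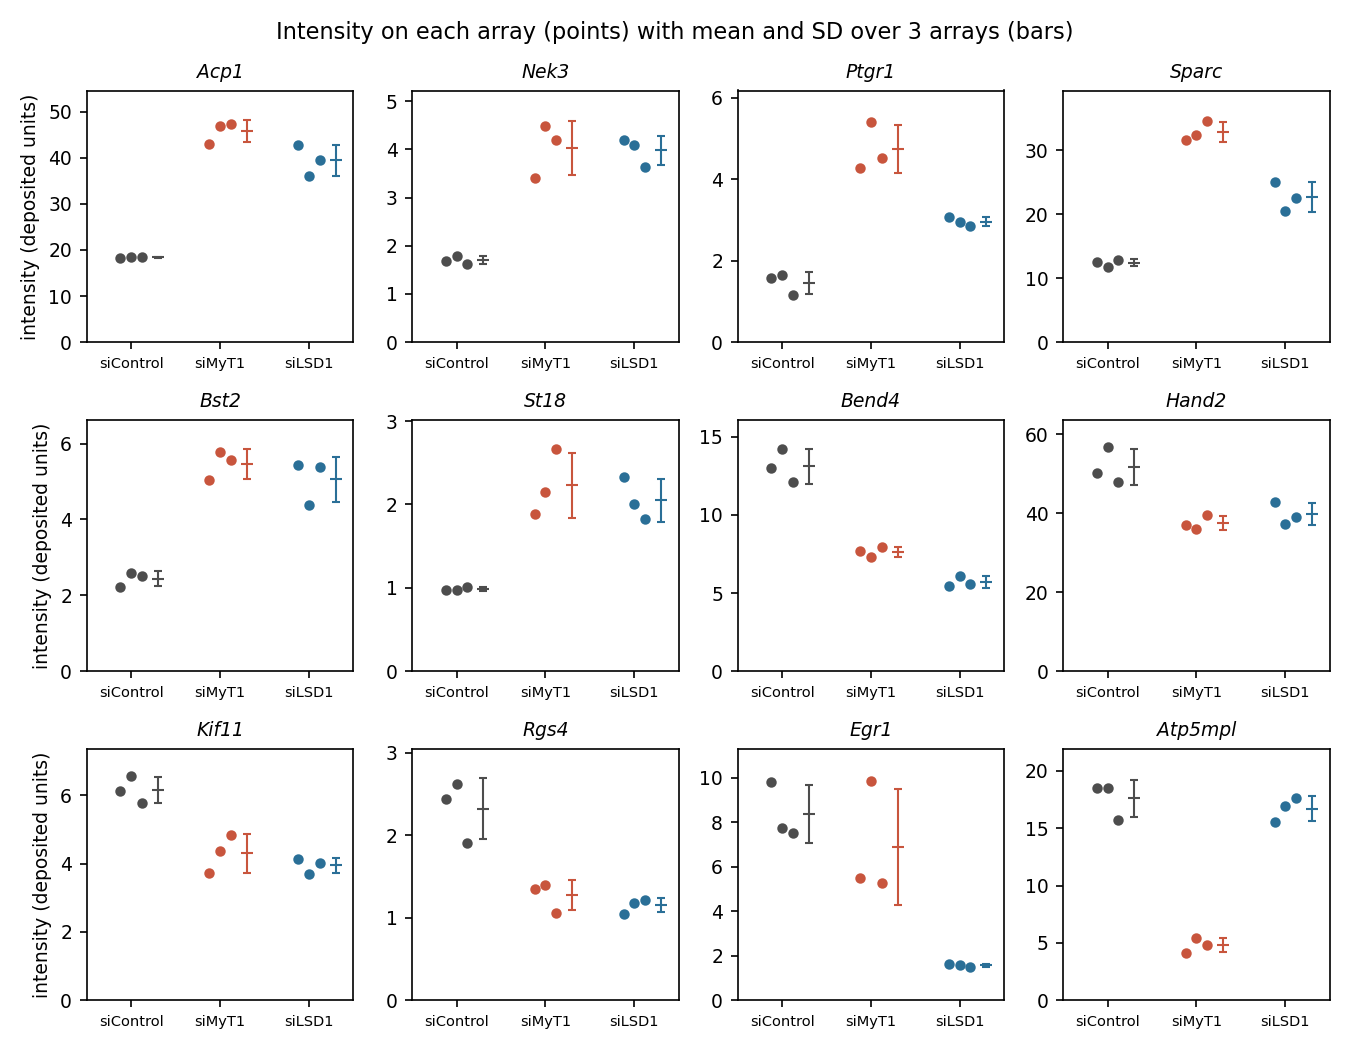
Intensity in deposited units on each array (points) for 12 genes, with the mean and SD over 3 arrays beside them; the y axes start at 0 and differ between genes. In the first 10 genes no knockdown array overlaps a control array, while Egr1 overlaps control in siMyT1 and Atp5mpl overlaps it in siLSD1.

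Bend4, which encodes a BEN domain protein, fell in the average with both knockdowns below control. It read 13.0, 14.2 and 12.1 units in siControl, 7.67, 7.30 and 7.95 in siMyT1, and 5.43, 6.11 and 5.55 in siLSD1. The 3 groups did not overlap, with siLSD1 lowest. The average was -0.97 (SE 0.07, adjusted p = 7.13e-06), and a further probe set gave -1.18. Rgs4, which speeds the switching off of G protein signals, read 2.44, 2.62 and 1.91 units in siControl, 1.35, 1.40 and 1.06 in siMyT1, and 1.05, 1.18 and 1.21 in siLSD1. Its average of -0.84 (SE 0.13, adjusted p = 0.00223) was even between the knockdowns.

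Hand2, a transcription factor that specifies sympathetic neurons, fell evenly. It measured 50.3, 56.9 and 48.0 units in siControl, 37.1, 36.1 and 39.6 in siMyT1, and 42.8, 37.4 and 39.0 in siLSD1. The fall was moderate and clear of the control arrays in both knockdowns (average -0.42, SE 0.07, adjusted p = 0.00254), with -0.46 in siMyT1 and -0.38 in siLSD1. Further Hand2 probe sets gave -0.40, which was called, and -0.44, which was not (adjusted p = 0.131). E2f8, a repressive member of the E2F family of cell cycle factors, read 5.68, 6.95 and 6.18 units in siControl, 3.55, 3.75 and 5.10 in siMyT1, and 3.36, 2.74 and 3.26 in siLSD1. Its average was -0.78 (SE 0.11, adjusted p = 0.00127).

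Several of the largest even falls were near the floor of the array. H1f7, a testis linker histone gene, went from 0.449 ± 0.20 units to 0.109 ± 0.086 in siMyT1 and 0.0897 ± 0.094 in siLSD1, and its call was lost without siControl replicate 1. Il1r2, Tas2r108, Cd3e and Fsd2 had control means of 0.314, 0.267, 0.521 and 0.240 units, and each call was lost without at least 2 of the control arrays. Crispld2 averaged -0.91 by a probe set of the _x_at or _s_at kind, which can bind several transcripts; by its other probe sets the average was 0.01 and -0.20, and neither was called.

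The siRNA targets show how far the average can be from a shared change. Kdm1a had one of the largest falls of the average, -1.28, although siMyT1 stood at 0.09 and siLSD1 at -2.64. Its arrays read 28.1, 30.1 and 28.9 units in siControl, 29.9, 30.1 and 32.8 in siMyT1, and 4.80, 4.05 and 4.63 in siLSD1. Myt1, at -1.06, combined -2.6 in siMyT1 with 0.49 in siLSD1. It read 4.60, 5.27 and 4.82 units in siControl, 0.625, 0.882 and 0.474 in siMyT1, and 7.09, 7.59 and 6.16 in siLSD1.

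Egr1, an immediate early transcription factor, had an average of -1.30 (SE 0.16, adjusted p = 0.000502) that came mainly from siLSD1. It read 9.81, 7.76 and 7.52 units in siControl, 5.49, 9.87 and 5.29 in siMyT1, and 1.64, 1.56 and 1.49 in siLSD1. In siMyT1 1 array lay just above the control range and the others below it, and the siLSD1 arrays were far lower. E2f2, an activator of S phase genes, averaged -1.16 (SE 0.09, adjusted p = 3.61e-05), with -0.49 in siMyT1 and -1.82 in siLSD1. Both knockdowns were clear of the control arrays, and they differed from each other by 1.32 (adjusted p = 4.61e-06). Atp5mpl, a small ATP synthase subunit, averaged -0.96 with -1.84 in siMyT1 and -0.08 in siLSD1.

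Gene families were read by how many measured members were called, beside 5.33% of all genes in the average and 18.8% in the direct comparison. These shares are not matched for brightness. In the average, 10.8% of the brightest quartile of genes and 8.82% of the next were called. A list of bright genes near those values therefore does not stand out. Immediate early and ERK feedback genes had 5 of 30 measured members higher and 3 lower (26.7% called). The 5 that rose were Dusp4, Dusp6, Spry1, Spry2 and Ier3, of which the dual specificity phosphatases and Sproutys damp ERK signalling and Ier3 is induced by it. All 5 were evenly changed, and 5 members were called higher whichever array was left out. Of the called members, rising or falling, 5 were uneven in the direct comparison. Among them were Dusp4 (siMyT1 minus siLSD1 -0.22, adjusted p = 0.0258) and Dusp6 (-0.21, adjusted p = 0.043), which were thus both even and uneven. Dusp4 read 44.4, 43.7 and 41.3 units in siControl, 51.6, 55.6 and 57.7 in siMyT1, and 65.4, 62.8 and 63.6 in siLSD1 (average 0.46, SE 0.05, adjusted p = 0.000328). Ier3 averaged 0.42 and Dusp6 0.39, each clear of the control arrays. Egr1, Arc and Dusp5 fell, and without siControl replicate 1 or 2 the count that fell was 1.

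Of 16 Kruppel-like factors, zinc finger factors of growth and differentiation, 3 rose (Klf3, Klf5 and Klf7) and 2 fell (Klf11 and Klf12). Klf3 read 9.62, 11.7 and 10.1 units in siControl, 14.8, 13.6 and 15.2 in siMyT1, and 15.7, 13.9 and 15.1 in siLSD1. Every knockdown array was above control (average 0.49, SE 0.07, adjusted p = 0.00112), with 0.47 in siMyT1 and 0.50 in siLSD1. Klf5 averaged 0.49 as well. Klf12, at -0.90, was uneven, with -0.31 in siMyT1 and -1.49 in siLSD1. The count that fell was 1 without any single control array.

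Among 23 targets of Nrf2, the factor that drives antioxidant genes, 6 rose and 0 fell. They were Ptgr1, the glutathione transferases Gstp1 and Gstm1, the thioredoxin reductase Txnrd1, and Pgd and Srxn1. Gstp1 went from 39.0 ± 0.61 units to 48.1 ± 2.8 in siMyT1 and 55.8 ± 3.3 in siLSD1 (average 0.41, adjusted p = 0.000935), and Txnrd1 from 35.3 ± 1.6 to 42.3 ± 2.7 and 43.4 ± 1.6 (0.28). Srxn1 was called from siLSD1, at 0.55, with siMyT1 at 0.00. The family's median was 0.08, beside 0.009 over all genes, and without siControl replicate 3 the count fell to 2.

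Lysosomal genes showed 5 of 32 members higher and 1 lower. The protease Ctsd read 59.1 ± 3.7 units in siControl, 71.5 ± 4.5 in siMyT1 and 80.1 ± 5.3 in siLSD1 (average 0.35, adjusted p = 0.00654), and with Hexa and Lamp2 it was evenly changed. Ctsb (0.38) and Wipi1 (0.56), which acts in autophagosome formation, were uneven and leaned to siLSD1. Without any single control array, or without siLSD1 replicate 3, 3 were higher; the 1 fall, Map1lc3b, was lost without siControl replicate 2 or 3 and without each knockdown array except siMyT1 replicate 3.

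Interferon and antigen presentation genes had 5 of 34 members higher and 0 lower. B2m, the light chain of MHC class I, read 33.7, 35.8 and 34.6 units in siControl, 56.4, 56.6 and 60.6 in siMyT1, and 45.1, 42.2 and 44.3 in siLSD1. The groups did not overlap (average 0.53, SE 0.05, adjusted p = 8.72e-05). With Bst2, described above, it was 1 of 2 even members. B2m was uneven as well, with siMyT1 above siLSD1 by 0.40 (direct comparison, adjusted p = 0.000432). Irf3 (0.36), Ifi35 (0.28) and Ifi27 (0.23) were uneven and not even. The Irf3 value came from a probe set of the _x_at or _s_at kind. Other Irf3 probe sets gave 0.11, 0.22 and 0.04, and none of them was called. The count of members called higher was 3 without siControl replicate 1, siMyT1 replicate 2 or siLSD1 replicate 1, and 2 without siControl replicate 3.

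Of 24 integrins 4 rose and 1 fell. Itga6, the laminin receptor subunit, went from 28.9 ± 0.53 units to 34.8 ± 2.3 in siMyT1 and 44.6 ± 2.9 in siLSD1 (average 0.44, adjusted p = 0.000687), and Itgav from 5.84 ± 0.62 to 7.81 ± 0.77 and 9.20 ± 0.11 (0.53). Itgb4 and Itga1 also rose, and the dim Itga8 fell in a call lost without any single control array and without siLSD1 replicate 3. Of 36 mesenchymal and matrix genes 3 rose: Sparc, Timp2 and Fn1. Timp2, an inhibitor of matrix proteases, was even by its brightest probe set (0.32 in siMyT1 and 0.30 in siLSD1). That call was lost without siControl replicate 1 or 3, or siLSD1 replicate 3. Another Timp2 probe set was called at 0.40, with 3.79 ± 0.18 units in siControl, 4.08 ± 0.21 in siMyT1 and 6.24 ± 0.40 in siLSD1. The rest gave 0.42, 0.24, 0.18 and 0.11 and were not called. Fibronectin, Fn1, was at 0.77 in siMyT1 and 0.09 in siLSD1. Sums of fibroblast and smooth muscle markers were also higher in siMyT1, and their part in these values was not tested. The brightest of these markers, Acta2, went from 7.95 ± 0.58 units in siControl to 12.8 ± 1.3 in siMyT1. Only 2 of the 12 markers were called in the direct comparison.

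Cholesterol genes went down where they were called, 4 of 21, with 0 higher. Idi1, the isopentenyl diphosphate isomerase, read 9.61, 10.2 and 9.55 units in siControl, 6.62, 6.38 and 6.54 in siMyT1, and 4.54, 3.46 and 4.24 in siLSD1. The 3 groups stood apart, with siLSD1 lowest (average -0.90, SE 0.08, adjusted p = 4.61e-05), and another probe set gave -1.01. Sc5d (-0.38) and Cyp51 (-0.32), later steps of the pathway, were below control in both knockdowns, and Srebf2, its main activator, in siMyT1 (-0.83, against 0.02 in siLSD1). The median of the family was -0.12. Without any single control array, or without siMyT1 replicate 2, 2 were called lower, and 1 member was higher without siLSD1 replicate 2. None of 20 fatty acid synthesis genes was called in the average, while 8 differed between the knockdowns. In the average 1 member was called higher without siControl replicate 3 and 2 without siMyT1 replicate 1.

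Cell cycle genes differed mainly between the knockdowns. Of 36 DNA replication and G1/S genes, 29 were called in the direct comparison (80.6%), 28 of them higher in siMyT1 than in siLSD1. In the average 6 fell and 2 rose, and all 8 were uneven. Cdc45, a helicase cofactor, stood at -0.02 in siMyT1 and -0.89 in siLSD1, and Rrm2, a ribonucleotide reductase subunit, at -0.12 and -0.63. Ccnd1, cyclin D1, went the other way, from 24.2 ± 0.19 units to 27.0 ± 1.8 and 37.9 ± 2.0 (average 0.40, adjusted p = 0.000939). Rfc5 also rose, and the count that rose was 1 without siControl replicate 1 or 3, siMyT1 replicate 2 or 3, or siLSD1 replicate 3.

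Of 29 mitosis genes 4 fell in the average and 0 rose, while 18 were called higher in siMyT1 than in siLSD1. Kif11, the motor that separates spindle poles, fell evenly. It read 6.13, 6.56 and 5.79 units in siControl, 3.73, 4.36 and 4.85 in siMyT1, and 4.13, 3.71 and 4.02 in siLSD1. All knockdown arrays were below control (average -0.56, SE 0.08, adjusted p = 0.00173). Nuf2, a kinetochore protein, was the other even member, at -0.49. Mki67 and Nusap1 were uneven. The count that fell was 2 without siControl replicate 1, and 1 member rose without siLSD1 replicate 2.

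Sympathoadrenal genes had the most calls among neural families, 6 of 27 higher and 2 lower. In the direct comparison 13 members were called, all 13 with siMyT1 below siLSD1. Hand2 was the 1 even member. Slc18a2, the vesicular monoamine transporter, read 4.92, 5.02 and 4.80 units in siControl, 3.75, 3.98 and 3.68 in siMyT1, and 10.2, 10.1 and 10.1 in siLSD1. The knockdowns lay on opposite sides of control, and the average of 0.33 (adjusted p = 0.00459) described neither. Npy, a neuropeptide of sympathetic neurons, averaged 0.93 with 0.19 in siMyT1 and 1.66 in siLSD1. Mycn and Ngfr had opposite signs in the knockdowns in the same way, at -0.26 and 0.89, and at -0.29 and 1.0. Elavl4, a neuronal RNA-binding protein, fell by 0.38 and was neither even nor uneven. The count that rose was 2 without siControl replicate 1 or siLSD1 replicate 1, and 3 without siControl replicate 3, siMyT1 replicate 2 or siLSD1 replicate 3; the count that fell was 1 without siControl replicate 2 or 3, or siLSD1 replicate 3.

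Neuronal genes that REST, a repressor of neuronal genes, keeps silent outside neurons had 3 of 36 members higher and 3 lower, none of them even. Chgb, a granin of secretory vesicles, stood at -0.71 in siMyT1 and 0.15 in siLSD1, and L1cam, an adhesion molecule of axons, at -0.06 and 0.57. Elavl3 fell (-0.24 in siMyT1 and -0.63 in siLSD1), and the vesicle GTPase Rab3c rose (0.52 and 0.14). In the LSD1-CoREST list, apart from both siRNA targets, St18, Phf21a and Zeb2 rose and Rcor3 fell, out of 29 measured. Only St18 among them was even; Rcor3, a CoREST paralog, was at -0.05 in siMyT1 and -0.45 in siLSD1. Calls in both lists rested on single arrays: without siControl replicate 3, siMyT1 replicate 3, siLSD1 replicate 1 or siLSD1 replicate 3, 1 member of each was higher, and so it was for the neuronal list without siControl replicate 1 (which also left 1 lower) and for the LSD1-CoREST list without siControl replicate 2.

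Of 54 genes of histone methylation, Polycomb and DNA methylation, 1 rose and 5 fell (11.1% called). Setd7, a lysine methyltransferase, rose evenly from 6.42 ± 0.57 units to 8.69 ± 0.084 in siMyT1 and 10.3 ± 0.60 in siLSD1 (average 0.55, adjusted p = 0.000278). It was uneven as well (siMyT1 minus siLSD1 -0.24, adjusted p = 0.0341 in the direct comparison). Pcgf5, a Polycomb subunit, fell in the average (-0.03 in siMyT1 and -1.45 in siLSD1), and Dnmt3a, a DNA methyltransferase, did so with -0.64 and -0.17. The count that fell was 1 without siControl replicate 1 or 2, and 3 without siControl replicate 3, siMyT1 replicate 3 or siLSD1 replicates 2 or 3. Of 24 p53 targets 2 rose and 2 fell, all uneven; Gadd45a stood at 1.06 in siMyT1 and -0.17 in siLSD1, and 1 fell without siControl replicate 1.

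In the small RNA machinery, which handles siRNAs, 2 of 27 members rose and 1 fell. Lin28a, which blocks let-7 maturation, was the even one, from 9.98 ± 0.94 units to 12.7 ± 0.60 and 14.4 ± 0.41 (average 0.43, adjusted p = 0.00121). Under quantile normalization the split was 1 higher and 2 lower, 1 rose without any single control or siMyT1 array, and 0 fell without siControl replicate 1. Of 31 glycolysis and hypoxia genes, Hk2 rose (0.37) and Adm (-0.61) and Egln1 (-0.31) fell, all 3 evenly, with 1 fall left without siControl replicate 2. Calls of 3 members were also made in the TGF-beta (33 measured), BCL2 and caspase (25) and ER stress (32) lists, each with 2 higher and 1 lower. The TGF-beta count of higher members was 0 without siControl replicate 2 or 3 or siLSD1 replicate 3, 1 without siControl replicate 1 or siMyT1 replicate 2 or 3, and 5 without siMyT1 replicate 1. The BCL2 list had 0 higher without siControl replicate 1 or 3, and the ER stress list 0 without siControl replicate 1 or 3 or siLSD1 replicate 3. Besides fatty acid synthesis, families with a share of calls under 5.33% were the respiratory chain (2 of 51), ribosomal proteins (1 of 31), proteasome (1 of 35), fatty acid oxidation (1 of 24), heat shock proteins (1 of 28), axon guidance (2 of 53), voltage-gated channels (1 of 42), Wnt (1 of 40), Notch (1 of 28), YAP targets (1 of 23) and iron handling (1 of 23). In several of these the direct comparison had more calls, with 12 of 24 fatty acid oxidation genes and 13 of 35 proteasome genes. Leaving out single arrays moved the counts of most of these lists by 1 or 2 members.

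**Figure D3:**
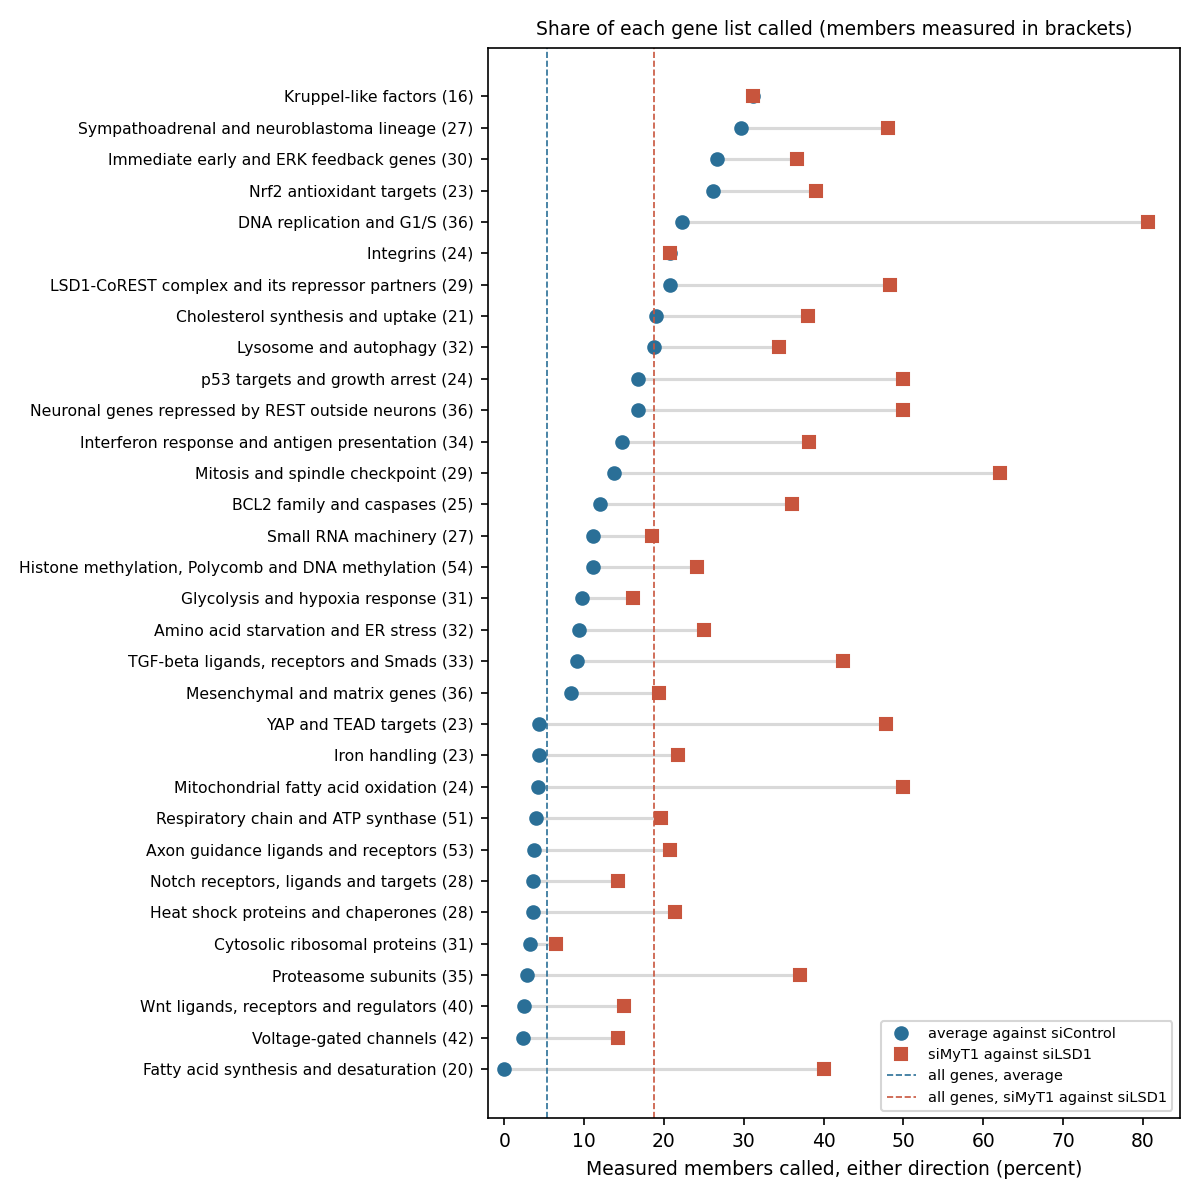
For each gene list, the percent of measured members called in the average (circles) and in siMyT1 against siLSD1 (squares), with all genes as dashed lines at 5.33% and 18.8%. DNA replication reaches 80.6% in the direct comparison and 22.2% in the average, while Kruppel-like factors are at 31.2% in both.

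Over all families 110 called members were counted. Median centring shifts the average of every gene alike, and the median over all genes went from 0.009 to 0.03. With 0.18 as the smallest called average, that shift could reverse the direction of 0 members. Under quantile normalization, where this median was 0.005, 0 reversed. The calls of the 110 held in 109 under quantile normalization and in 86 under median centring. Without each control array in turn, 52 of the 110 were still called.

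The shared control bears on all of these values. With 3 control and 6 knockdown arrays of equal spread, 66.7% of the sampling variance of the average comes from the control mean and 33.3% from the knockdown means. Because both knockdown differences subtract the same mean, their sampling errors correlate at 0.5, so 2 knockdowns on the same side of control are not 2 independent readings. The errors of the average and of siMyT1 minus siLSD1 correlate at 0.0 by design. A value that was high or low in the 3 siControl samples alone and an equal, opposite change of both knockdowns cannot be told apart here, and evenness between the knockdowns does not separate them.

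The calls of the average changed when control arrays were left out. With siControl replicate 1 left out, the average called 265 genes higher and 186 lower. Leaving out replicate 2 of siControl gave 480 and 187, and leaving out its replicate 3 gave 256 and 266. Rises made up 59.6% of the calls with all arrays, 72.0% with replicate 2 of siControl left out and 49.0% with its replicate 3 left out. The median log2 level over genes was highest of the controls on replicate 2 (0.473) and lowest on replicate 3 (0.292); its part in the split was not tested. In the same fits the direct comparison called 3076, 3459 and 3327 genes. It holds no control array, so only its estimate of spread could change there. Without siLSD1 replicate 3 the direct comparison called 2331 genes, and the average called 371 higher and 277 lower. Those are 648 calls of the average, beside 667 without siControl replicate 2. Each such fit also has fewer arrays, and the part of that in the counts was not tested.

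Of the 969 genes, 432 (44.6%), 589 (60.8%) and 495 (51.1%) were still called without siControl replicate 1, 2 and 3. A core of 353 genes was called without each control array in turn, and these 353 were also called without each knockdown array; 136 of them were evenly changed. Of the 109 genes named by rule, 17 were called under all 20 alternative settings: Ptgr1, Milr1, Prkg2, Acp1, Nek3, Dock10, Sparc, Arhgdib, Bst2, St18, Dusp4, Ier3 and Klf3, which rose, and Bend4, Rgs4, Hand2 and Kif11, which fell. One of these settings treats the 6 knockdown arrays as 1 group, so that any difference between the knockdowns counts as error; it called 54 genes, all 54 among the 324 even ones.

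**Figure D4:**
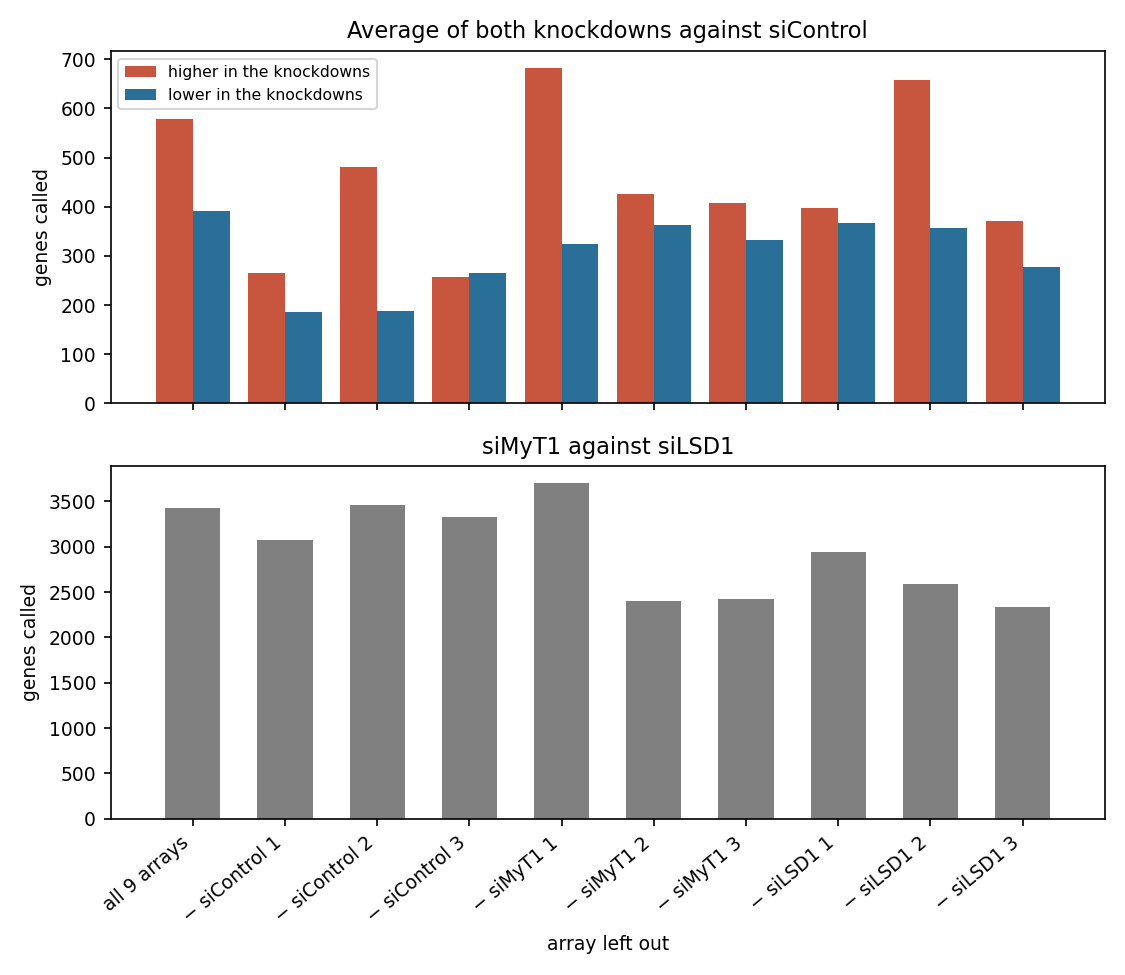
Genes called with all 9 arrays and with each array left out, for the average (top, higher and lower) and for siMyT1 against siLSD1 (bottom). Without siControl replicate 1 or 3 the calls of the average fall to 451 and 522 from 969. The direct comparison holds no control array and calls 3076 and 3327 there, against 3423 with all arrays. Without siLSD1 replicate 3 it calls 2331, and the average calls 648.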

How the data were processed

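The authors deposited 1 table of linear intensity values for 45101 probe sets on 9 one-colour arrays; the background, summarisation and scaling steps behind it are not stated in these sources. Probe sets were named from the platform annotation: 34945 had 1 gene symbol, 932 several and 9224 none. They covered 18193 genes, 9010 of which had several probe sets, and 34741 probe sets matched RefSeq identifiers (GRCm38.p6). Array medians were 0.302 to 0.424 units, and 48 values were 0. Values were multiplied by 163.6, which sets the mean trimmed by 2% at each end to 500, 32 was added, and log2 was taken. Values were used without normalization between arrays by a rule that required it only where array medians differed by over 0.5 on this scale. They differed by 0.317, which is more than the smallest called average, 0.18, so median centring and quantile normalization are given as alternatives. The number of arrays limits the precision.

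Group means over all 9 arrays were fitted with limma 3.58.1 in R 4.3.3, with an intensity trend (6 residual and 6.84 prior degrees of freedom). Tests were two-sided, with Benjamini-Hochberg adjustment over all genes and a threshold of 0.05. The script was tested on simulated arrays. The members, gene lists and rules were chosen with earlier results of these data known, and no list was tested. Genes named by rule were the siRNA targets, the 12 largest changes per direction with arrays apart, the 10 largest even and 5 largest uneven changes per direction (unnamed clones excepted), and up to 4 called members per list with the smallest p. Other called members named in the text were chosen after their values were seen. Where 606 called genes had another probe set, it was called the same way in 159 and the opposite way in 1 (Slc25a17). Same-numbered arrays of different groups correlated at -0.026 to 0.038 after group means were removed, so the numbers were not taken as pairs. Alternatives were other normalizations, added constants of 1 and 100, dropping dim probe sets, other probe set rules, other variance models, a pooled knockdown group, a replicate block and each array left out.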

Additional observations from a re-analysis of the deposited data

Results flagged for a closer look

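These genes, among those with the largest average, also differed between the knockdowns in the direct test, so the average is not their change in either. siMyT1 was above siLSD1 on the log2 scale by 0.64 for Ptgr1, 0.47 for Prkg2, 0.21 for Acp1, 0.61 for Dock10, 0.53 for Sparc and 0.31 for Arhgdib, all of which rose in both. It was below siLSD1 for Fam163a (-1.03) and Itgb4 (-1.21). Among genes with a lower average, siMyT1 was above siLSD1 by 1.32 for E2f2, 0.41 for Bend4, 0.66 for Idi1, 0.58 for Cdsn, 0.82 for Dolpp1, 0.90 for Tmem19 and 1.95 for Egr1. The siRNA targets differed by 2.73 (Kdm1a) and -3.08 (Myt1).

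Outside the named genes, 10092 probe sets had no gene symbol or several. Of these, 50 were called higher and 39 lower in the average, in a fit of all probe sets. Over all probe sets, whose number is given above, the same fit called 645 higher and 474 lower. The share called was therefore lower among probe sets with no symbol or several than over all probe sets.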

How the results depend on the processing

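The calls of the average changed with the variance model and with single arrays. Those of the direct comparison, which holds no control array, lay between 2331 and 4332 genes over the settings that gave it. Beside 578 genes higher and 391 lower, 324 of them even, quantile normalization called 1112, 905 and 686. Median centring called 646 higher and 305 lower and kept 79.4% of the calls. Averaging all probe sets of a gene gave 352, 239 and 209, and moderation without an intensity trend gave 326, 187 and 205. Array weights gave 1017 higher and 528 even, and the filter on dim probe sets, with 10066 genes tested, 594 lower. The 6 knockdown arrays as 1 group gave 45 higher and 9 lower, with no even class. With each array left out in turn, 256 to 683 were higher, 186 to 367 lower and 179 to 337 even. With the replicate block 401 were higher and 298 lower, 244 of them even, and the direct comparison called 2927; the numbers do not pair these samples. Crispld2 changed sign, to 0.01, without probe sets of the _x_at and _s_at kind, where another of its probe sets stood for the gene. Of the 109 named genes, 50 kept their call under every setting except the pooled group. Dim genes near the added constant had few calls, and 3081 genes had an unadjusted p under 0.05 in limma.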
